A study of Mus musculus with 6 samples.

Results

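Greb1 and Greb1l are a pair of related genes, and both were measured in 6 mouse tumours of the MASE2 ovarian cancer line, 3 grown with 17β-estradiol (E2) and 3 with placebo. The members were taken by name, as the probe sets whose platform annotation holds 1 gene symbol, Greb1 or Greb1l. That gave 1 probe set for Greb1 and 2 for Greb1l, so 3 of the 34760 probe sets on the array and 2 of the 19937 genes they name. A probe set is the group of array probes that report one transcript.

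The series asked how E2 acts on ovarian tumour growth, and its title names GREB1. MASE2 is a single line, taken from the ascites of a tgCAG-LS-TAg mouse that had itself received E2. In that model an adenovirus carrying Cre (AdCre), injected into the ovarian bursa, turns on the SV40 large and small T antigens in ovarian surface epithelium. The cells were grown in MOSE medium and injected into SCID mice, which lack mature T and B lymphocytes. The E2 or placebo pellet was placed at the same time as the cells. Both groups therefore share the line, the T antigens and the E2 history of the donor mouse, and differ in the pellet. Tumours were collected at loss of wellness, so the day of collection may differ between mice. The labels give no pellet dose, mouse age or day of collection. Each group holds 3 tumours, described as biological replicates, and each tumour has its own array.

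GREB1 is switched on early when oestrogen receptor alpha binds oestrogen, and its protein binds the same receptor at chromatin and takes part in its transcriptional activity. It is known as a growth-promoting gene in hormone-responsive breast, ovarian and prostate cancer cells. GREB1L, its paralog, is known from development: the gene is needed for kidney, genital tract and inner ear formation, and human variants in it are linked to missing kidneys. Less is known of GREB1L in adult or malignant ovarian cells.

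RefSeq lists 2 transcription starts for Greb1 on mouse chromosome 12, and the 250 bases before each are printed here in the direction of transcription because the gene's response to E2 carries the findings. Capitals mark each match to GGTCA, the half-site that oestrogen receptors bind, on either strand (TGACC is its reverse). The first lies at chr12:16800887-16801136 and the second at chr12:16757240-16757489, both on the minus strand of GRCm38.p6.
Greb1 start A: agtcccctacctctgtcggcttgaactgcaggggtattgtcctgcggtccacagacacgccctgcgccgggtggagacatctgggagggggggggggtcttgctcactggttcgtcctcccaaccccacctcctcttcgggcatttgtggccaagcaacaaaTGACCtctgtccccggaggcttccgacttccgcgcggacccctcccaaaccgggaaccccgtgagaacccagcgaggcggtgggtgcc
Greb1 start B: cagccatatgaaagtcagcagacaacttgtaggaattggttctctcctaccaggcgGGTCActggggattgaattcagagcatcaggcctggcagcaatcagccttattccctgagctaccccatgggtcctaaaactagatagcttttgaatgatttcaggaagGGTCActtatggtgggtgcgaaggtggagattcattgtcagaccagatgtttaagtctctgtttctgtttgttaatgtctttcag

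The window of start A held 1 half-site, 88 to 84 bases before the start, and that of start B held 2, at 194 to 190 and 85 to 81 bases before it. Such a half-site was present in 35.2% of all 32851 RefSeq windows of this length. The full oestrogen response element GGTCANNNTGACC, an inverted pair of half-sites, had 0 matches in either window and was present in 0.0639% of all of them. The Nr5a1 site CAAGGTCA, which overlaps the half-site (1.33% of windows), the AP-1 site TGANTCA (6.75%), the Sp1 site GGGCGG (32.7%) and the cAMP response element TGACGTCA (1.55%) also had 0 matches, with both strands searched. Start A lay in sequence with 65.2% G and C, start B in sequence with 46.0%. The array values do not say which start was used. Both starts rest on the RefSeq annotation alone, and whether transcription begins at start B in these tumours was not tested.

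Greb1 was low in every placebo tumour and far higher in every E2 tumour. Its log2 signal, the deposited unit, was 4.88, 5.39 and 4.87 in placebo replicates 1, 2 and 3. In E2 replicates 1, 2 and 3 it was 8.44, 8.42 and 8.53. The groups did not overlap: the lowest E2 tumour lay 3.03 log2 units above the highest placebo tumour. The E2 tumours were close together (8.46 ± 0.06, SD, n = 3), while placebo replicate 2 stood above the other placebo tumours (range 0.516, group mean 5.05 ± 0.30, SD, n = 3). The rise of Greb1 in limma's test over all genes was 3.41 log2 units (SE 0.16), or 10.7-fold, with a 95% confidence interval of 8.15 to 13.9 (Benjamini-Hochberg adjusted p = 0.00131). Of the 19937 genes, 7 had a larger rise. An exact two-sided permutation test of Greb1 gave p = 0.10, the smallest that 3 against 3 can give.

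All 3 placebo values of Greb1 lay between the lower quartile and the median of genes on their own arrays (quartiles 4.22 to 4.39 and medians 5.26 to 5.41 over the 6 arrays). On those arrays 38.4% to 49.6% of genes had a lower signal than Greb1, and on the E2 arrays 95.9% to 96.3% did. No detection call was used here, so the placebo level was not shown to be above background, and signal near background shrinks a fold change. The fold is therefore one of measured array signal. In bulk tumour RNA, more RNA per cell and more cells that carry the transcript cannot be told apart.

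Greb1l was also higher in every E2 tumour, by a smaller step. Its gene value, from the brighter probe set, was 5.17, 5.19 and 4.68 in placebo replicates 1 to 3, and 6.34, 5.82 and 6.44 in E2 replicates 1 to 3. The groups were apart by 0.62 log2 units between the highest placebo and the lowest E2 tumour. The group means were 5.02 ± 0.29 with placebo and 6.20 ± 0.34 with E2 (SD, n = 3). The difference of 1.19 on the log2 scale (SE 0.22) corresponds to 2.27-fold, with a 95% confidence interval of 1.57 to 3.29. It missed the threshold of 0.05 in limma over all genes (adjusted p = 0.0704, unadjusted p = 0.00159). The exact two-sided permutation test again gave its smallest value, p = 0.10. That all E2 arrays exceed all placebo arrays was true of 14.9% of all genes, so this feature alone does not set Greb1l apart. A larger measured rise was found for 212 genes.

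The other Greb1l probe set gave a nearly equal difference at a lower signal. It measured 4.84, 5.0 and 4.28 with placebo and 5.79, 5.51 and 6.32 with E2, in replicate order. In placebo replicate 3 its value was under that array's lower quartile of genes. With all probe sets tested singly, it differed by 1.17 log2 (SE 0.27, limma adjusted p = 0.143) and the brighter one by 1.19 (SE 0.22, adjusted p = 0.0905). In both probe sets placebo replicate 3 was the lowest tumour, E2 replicate 2 the lowest E2 tumour and E2 replicate 3 the highest of all.

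**Figure D1:**
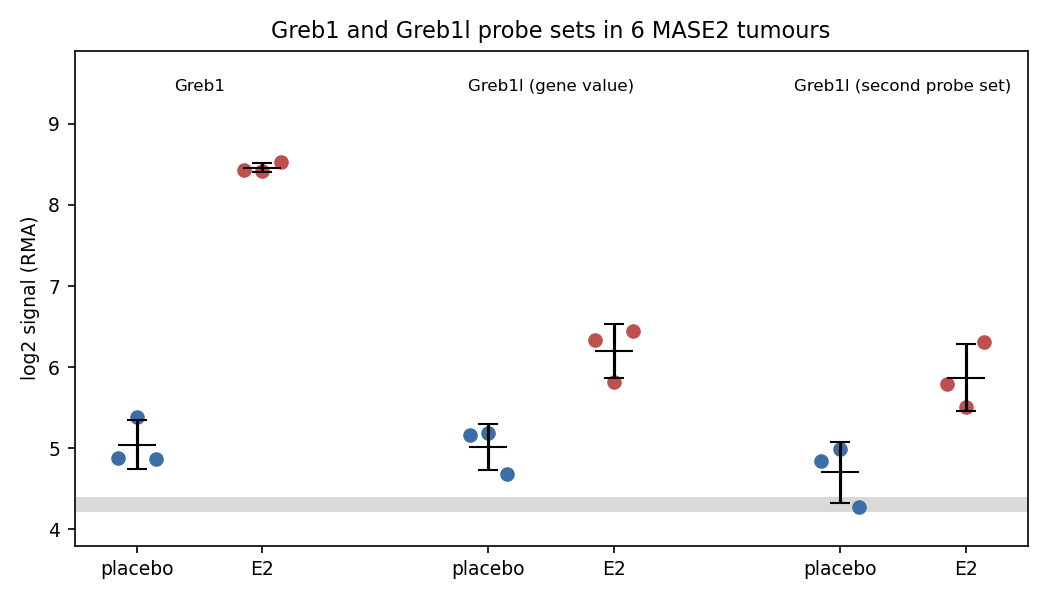
Log2 signal (RMA) of the Greb1 probe set and both Greb1l probe sets, with 1 point per tumour (blue placebo, red E2) and the mean with 1 SD in black. The grey band spans the lower quartile of genes over the 6 arrays (4.22 to 4.39). Greb1 E2 tumours sit at 8.42 to 8.53, and the Greb1l gene value goes from 4.68 to 5.19 with placebo to 5.82 to 6.44 with E2.

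The measured signals of the paralogs changed by different amounts. On each array the log2 signal of Greb1 minus that of Greb1l was -0.29, 0.20 and 0.19 in the placebo tumours and 2.10, 2.60 and 2.08 in the E2 tumours. The mean of this difference moved from 0.03 ± 0.28 to 2.26 ± 0.30 (SD, n = 3), so Greb1 changed by 2.23 log2 units more than Greb1l, or 4.69-fold. The groups did not overlap, and the exact two-sided permutation test of this single value gave p = 0.10, its smallest possible. The levels themselves are not compared between the genes, since probes differ in brightness. How far changes are compressed may also differ between probe sets, so the 4.69-fold is one of measured array signal. The E2 tumour with the lowest Greb1l value, E2 replicate 2, also had the lowest Greb1 value of the E2 group (8.42, against 8.44 and 8.53). Probe sequences were not used here, so signal shared between the paralogs was not tested.

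The calls were read against the whole table. Over all genes, 1.06% were called higher with E2 and 0.326% lower at an adjusted p under 0.05, and 1 of the 2 members was among the higher genes. At an unadjusted p under 0.05 these shares were 10.4% higher and 6.16% lower, which is the background for the unadjusted counts given for gene lists. Both genes were chosen with earlier results of these data known, so nothing is read from that share. Placebo replicate 3 stood apart from the rest (Pearson r across genes of 0.857 to 0.865 with the other arrays, against 0.960 to 0.994 among those), and its intestinal markers were high. All 15 intestinal epithelium markers were highest there. Without that array, 6.4% of genes were called higher and 5.21% lower. Greb1 then differed by 3.33 log2 (limma adjusted p = 2.74e-05), and Greb1l by 1.02 log2 (SE 0.18), which passed the threshold (adjusted p = 0.00988).

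Greb1 kept its call whichever array was left out, and Greb1l passed only without placebo replicate 3. The Greb1 change ranged from 3.33 to 3.59 log2 over all 6 of these fits, with adjusted p from 2.74e-05 to 0.0265. The Greb1l change ranged from 1.02 to 1.38 log2, with adjusted p from 0.00988 to 0.280. Centring each array on its median also brought Greb1l past the threshold (1.27 log2, adjusted p = 0.0495), as did weighting arrays by their quality (1.01 log2, adjusted p = 0.0221). The sign of both changes was the same in each of the 14 alternative fits.

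**Figure D2:**
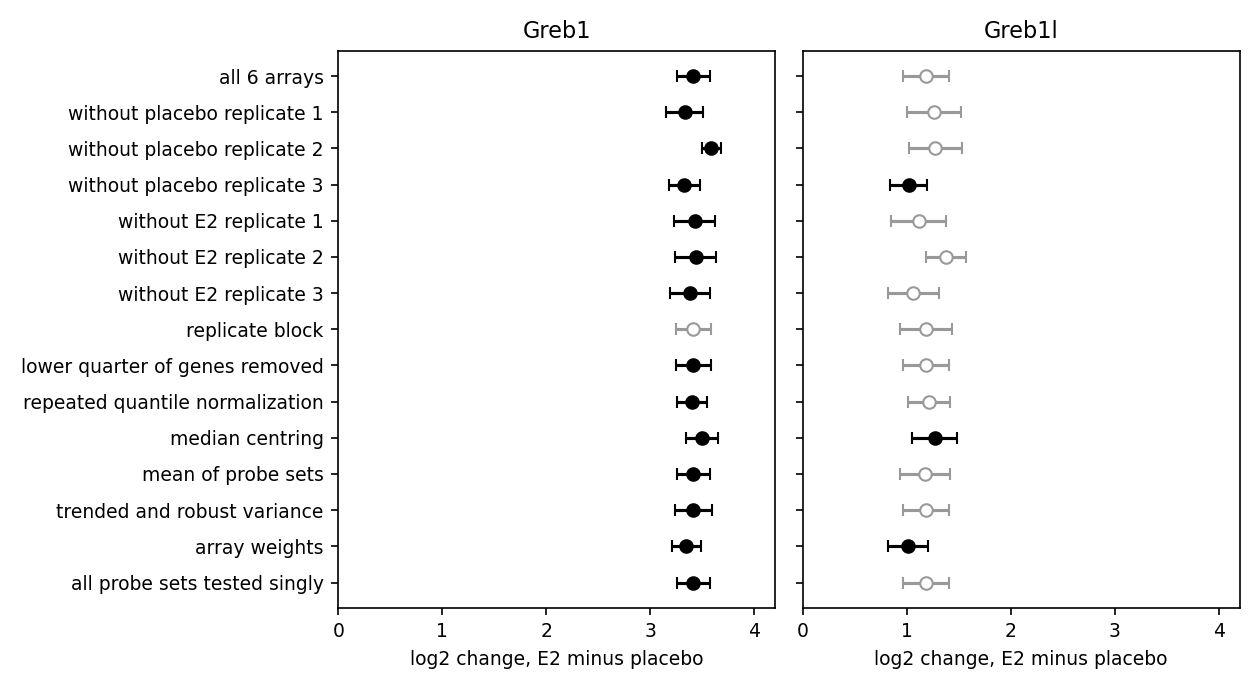
Log2 change of Greb1 and Greb1l, E2 minus placebo, with all 6 arrays and in each alternative fit; bars are 1 SE, and filled black points have a limma adjusted p under 0.05. Greb1 stays between 3.33 and 3.59 and Greb1l between 1.01 and 1.38.

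The genes whose values moved most like those of Greb1 over the 6 arrays were described by a distance. Each gene was centred on its own mean, and the root mean square difference from centred Greb1 was taken. Predicted genes, genes named only by a clone, pseudogenes, and small and long non-coding RNAs were left out. Greb1 itself had a root mean square spread of 1.72 log2 units. The nearest gene was Qrfprl, a G protein-coupled receptor gene, at 0.13 log2 units, and it alone lay within 0.2. It measured 4.06, 4.34 and 4.18 with placebo, on 2 of these arrays below the lower quartile of genes, and 7.61, 7.35 and 7.61 with E2. Inha, which encodes the inhibin alpha subunit of the gonads, followed at 0.25, then Prss35, a serine protease gene (0.32), Myl7, an atrial myosin light chain gene (0.32), Zbtb8b, a zinc finger gene (0.33), and Kctd14 (0.34). Their changes of 2.84 (Zbtb8b) to 3.86 log2 (Kctd14) follow from this choice, which used the same 6 arrays, and are given as a description. Within 0.5 log2 units of Greb1 lay 17 genes. Without placebo replicate 3, 2 of the nearest 6 were the same, Qrfprl and Myl7, so the order among these genes rests on single arrays.

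The same distance was taken from Greb1l, whose own spread was 0.65 log2 units, so distances from the paralogs are not on a like footing. Within 0.2 log2 units of Greb1l lay 22 genes. The nearest were Rmnd5b, a ubiquitin ligase subunit gene (0.12), Mreg, which encodes melanoregulin (0.12), Star, the cholesterol carrier of steroidogenic cells (0.15), and Slc9a7, a sodium and proton exchanger gene (0.15). Star measured 4.73, 4.75 and 4.32 with placebo and 5.73, 5.34 and 5.63 with E2. Its placebo replicate 3 value was under the lower quartile of genes. The changes of these 4 genes, 0.91 (Slc9a7) to 1.22 log2 (Mreg), are likewise fixed by the choice. When placebo replicate 3 was left out, Rmnd5b and Mreg were again among the nearest 4.

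**Figure D3:**
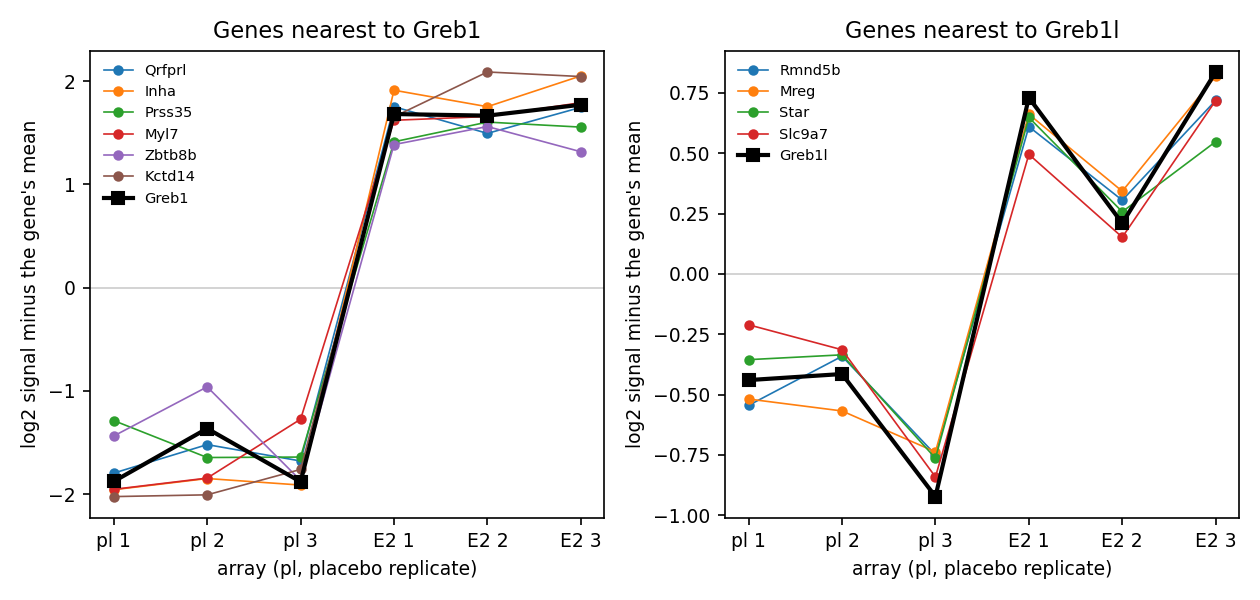
Log2 signal minus each gene's own mean on the 6 arrays for Greb1 (left) and Greb1l (right, with its own axis range), in black, with their nearest genes in colour; pl is a placebo replicate, and lines only join the values of 1 gene. The nearest 6 genes lie within 0.34 log2 units of Greb1 and the nearest 4 within 0.15 of Greb1l by root mean square difference.

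The genes beside Greb1 on chromosome 12 were read next, as the 4 measured protein-coding genes on each side in RefSeq order. For neighbours of both paralogs, before and after mean lower and higher chromosomal position. Greb1 lies on the minus strand, so the genes after it are on the side where its transcription begins. Of its 8 neighbours, 2 rose and 0 fell. Lratd1, 4 places before Greb1, differed by -1.09 log2 (unadjusted p = 0.0467, adjusted p = 0.295). Trib2, a pseudokinase gene 3 places before Greb1, measured 5.40, 5.67 and 5.38 with placebo and 6.63, 6.65 and 6.73 with E2. Its rise was 1.19 log2 (SE 0.11, limma adjusted p = 0.00957). Pqlc3, 2 places after Greb1, measured 6.42, 6.47 and 6.19 with placebo and 7.22, 7.38 and 7.51 with E2, a rise of 1.01 log2 (SE 0.12, adjusted p = 0.0250). Between Greb1 and Pqlc3 lies E2f6, which encodes a repressor of the E2F family. It was 6.07, 6.65 and 5.77 with placebo and 7.12, 7.37 and 7.41 with E2, a difference of 1.14 log2 that did not pass (SE 0.23, adjusted p = 0.0885). Ntsr2, directly before Greb1, differed by -0.09 log2 (adjusted p = 0.669), and Lpin1 beyond it by 0.04 (adjusted p = 0.962). Trib2, Pqlc3 and E2f6 all passed without placebo replicate 3, 3 of 8. E2f6 also passed without placebo replicate 2, Trib2 lost its call without placebo replicate 1 or any E2 array, and Pqlc3 without any array but placebo replicate 3.

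Around Greb1l on its own chromosome, 0 of the 8 measured neighbours passed in limma. Usp14, a deubiquitinase gene 2 places before it, was 0.40 log2 higher (unadjusted p = 0.00974, adjusted p = 0.156) and was the 1 neighbour with an unadjusted p under 0.05. Rock1, a kinase gene directly before Greb1l, differed by -0.08 (adjusted p = 0.761), Esco1, directly after it, by 0.21 (adjusted p = 0.471), and Snrpd1, a splicing factor gene, by 0.24 (adjusted p = 0.608). Colec12, a collectin gene, was the 1 neighbour that fell without placebo replicate 3 (-0.59 log2, adjusted p = 0.0237), and 0 rose.

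**Figure D4:**
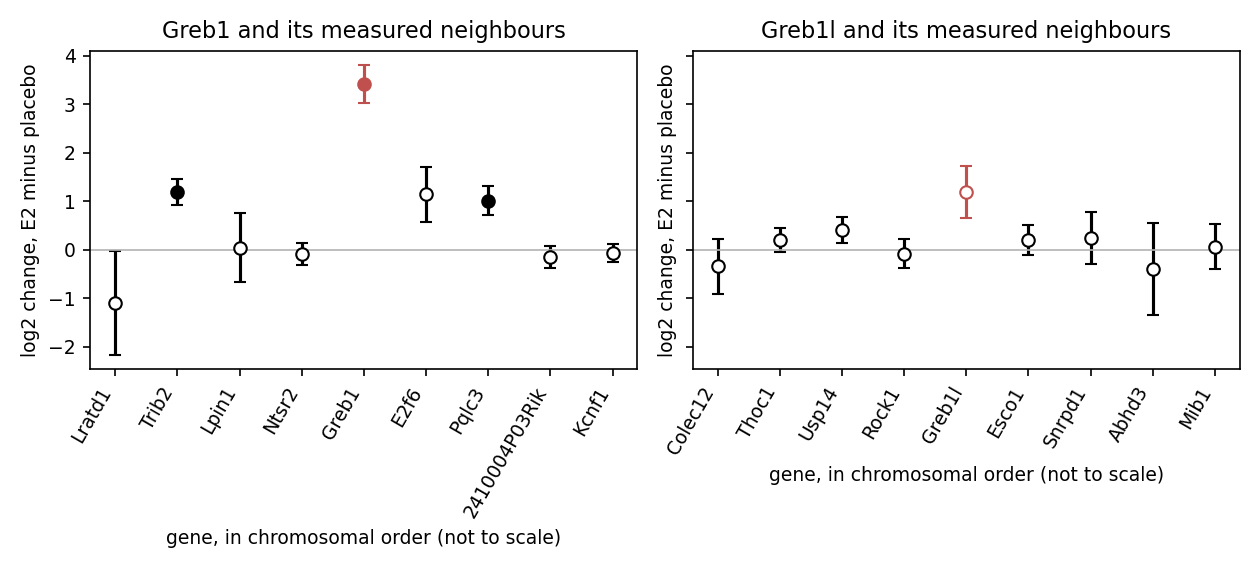
Log2 change, E2 minus placebo, with its 95% confidence interval for Greb1 and Greb1l (red) and the 4 measured protein-coding genes on each side, in chromosomal order and not to scale; filled points have a limma adjusted p under 0.05. Greb1 stands at 3.41 between neighbours from -1.09 to 1.19, and Greb1l at 1.19 between neighbours from -0.40 to 0.40.

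Oestrogen receptor genes were read beside Greb1. Esr1, which encodes oestrogen receptor alpha, measured 8.92, 9.06 and 6.35 with placebo and 9.36, 9.29 and 9.17 with E2. Placebo replicates 1 and 2 thus had Esr1 signal close to that of the E2 tumours, with Greb1 at 4.88 and 5.39. In placebo replicate 3 Esr1 was lowest, and Greb1 was at 4.87, as in placebo replicate 1. The Esr1 difference did not pass (1.17 log2, SE 0.72, adjusted p = 0.475; 0.29 without placebo replicate 3, adjusted p = 0.125). Esr2, for oestrogen receptor beta, lay at 4.45 ± 0.08 and 4.43 ± 0.08 (SD, n = 3), a difference of -0.01 (adjusted p = 0.953). Of 9 measured steroid and oestrogen receptors, Pgr, the progesterone receptor gene, was the 1 that rose and 0 fell (list median -0.07 log2, against -0.01 over all genes). Nr3c1, the glucocorticoid receptor gene, differed by -0.50 log2 (adjusted p = 0.109) and fell without placebo replicate 3 (-0.55 log2, adjusted p = 0.0209). Repeated quantile normalization and array weights also gave 1 receptor lower. Pgr measured 3.83, 5.36 and 4.40 with placebo and 7.31, 7.09 and 7.12 with E2, a rise of 2.64 log2 (SE 0.37, adjusted p = 0.0376) that lost its call without placebo replicate 1 or any E2 array. Pgr and Greb1 share their highest placebo value, in placebo replicate 2.

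Among 29 measured oestrogen receptor targets other than Greb1, 5 rose and 0 fell, and the list median was 0.02 log2. Rerg, a small GTPase gene named for its oestrogen regulation, rose by 2.67 log2 (SE 0.24, adjusted p = 0.00918), Stc2, which encodes a secreted glycoprotein, by 1.9 (SE 0.20, adjusted p = 0.0165) and Cyp26a1, which encodes the enzyme that degrades retinoic acid, by 1.23 (SE 0.14, adjusted p = 0.0237, 1 placebo value under the lower quartile of genes). Pgr was the next by p, and Igf1, a growth factor gene, the last (1.48, SE 0.23, adjusted p = 0.0475). All of these changes were smaller than that of Greb1. The count was 5 without placebo replicate 2 and 10, with 2 falls, without placebo replicate 3. It was 0 without placebo replicate 1 and 0 without each E2 array, where Greb1 alone kept its call; at an unadjusted p under 0.05 with all arrays, 8 targets were higher and 1 lower.

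The coregulator and pioneer factor genes encode partners of the receptor at chromatin. Of 15 measured, 0 passed in limma over all genes, with 3 higher and 1 lower at an unadjusted p under 0.05 (list median -0.06 log2). Tle3, a corepressor gene, differed by 0.51 log2 (adjusted p = 0.0861), and Ncoa1, which encodes a steroid receptor coactivator, by -0.75 (adjusted p = 0.182). Tle3 (0.57 log2, adjusted p = 0.0117) and Nrip1, a corepressor gene (adjusted p = 0.0232), rose without placebo replicate 3. GREB1 has been described as an enzyme that adds O-linked N-acetylglucosamine to the receptor, and genes for that sugar's supply and turnover were therefore read beside it. Of 9 measured, 0 passed (1 with an unadjusted p under 0.05, list median -0.02 log2). Eogt, a secretory-pathway transferase gene, differed by 0.34 (adjusted p = 0.225) and Gnpnat1, of sugar nucleotide supply, by 0.41 (adjusted p = 0.409). Gnpnat1 was the 1 gene of this list that rose without placebo replicate 3 (0.64 log2, adjusted p = 0.0131).

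Lists tied to either paralog in other tissues gave few calls. GREB1 is a known beta-catenin target in liver tumours. Of 14 measured Wnt targets 0 passed, with 1 higher and 3 lower at an unadjusted p under 0.05 (list median -0.14 log2). With placebo replicate 3 left out, Fzd7, a Wnt receptor gene, rose (0.45 log2, adjusted p = 0.0165) and Tnfrsf19, a receptor gene, fell (-0.50 log2, adjusted p = 0.0258). Lef1, a Wnt transcription factor gene, differed by -0.32 (adjusted p = 0.203). Lgr5, a stem cell receptor gene, differed by -0.71 (adjusted p = 0.221) and was under the lower quartile on all 3 E2 arrays and 1 placebo array. It fell without placebo replicate 2 (adjusted p = 0.0310). For Greb1l, 1 of 18 measured genes of early kidney and genital duct formation rose and 0 fell (list median -0.03 log2): Etv5, a transcription factor gene downstream of the Ret receptor, by 0.81 log2 (SE 0.13, adjusted p = 0.0483). That count was 0 with the mean of probe sets and with a trended, robust variance. At an unadjusted p under 0.05 in limma, 3 kidney and duct genes were higher and 2 lower. In the retinoic acid pathway, 1 of 15 rose, Cyp26a1, and 0 fell (list median 0.24 log2, or 0.05 without placebo replicate 3). At an unadjusted p under 0.05 in limma, 5 of the 15 were higher and 1 lower. Their summed signal was 10.2 to 10.7 log2 with placebo and 11.06 to 11.10 with E2. Of 11 proliferation genes, 1 rose, Rrm2, a ribonucleotide reductase subunit gene (0.96 log2, SE 0.13, adjusted p = 0.0335), and 0 fell. At an unadjusted p under 0.05 in limma, 3 of these were higher and 0 lower. The proliferation list median was 0.45 log2, and placebo replicate 3 was lowest in all 11. With placebo replicate 3 left out, 2 kidney and duct genes rose and 2 fell, 4 retinoic acid genes rose and 1 fell, 1 proliferation gene rose and 1 fell, and that proliferation median was 0.12 log2. Etv5, Cyp26a1 and Rrm2 lost their calls without placebo replicate 1 and without any E2 array, and Rrm2 also without placebo replicate 2.

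Markers of several cell types moved with the same contrast as Greb1 and Greb1l. Of 11 measured granulosa and steroidogenic markers, 7 rose and 0 fell, and their summed signal was 8.51 to 8.85 log2 with placebo and 10.9 to 11.2 with E2. Inha (3.81 log2), Cyp11a1 (4.26, with 2 placebo values below the lower quartile) and Nr5a1 (2.45) were among those that rose, and of these Nr5a1 lost its call without E2 replicate 3. The count of 7 was 5, 6 and 8 without placebo replicates 1, 2 and 3, and 3, 4 and 2 without E2 replicates 1, 2 and 3. The granulosa genes Foxl2 (-0.01) and Fshr (-0.01, under the lower quartile on all 6 arrays) did not pass. Of 12 markers of epithelium and ovarian surface epithelium, the labelled origin of the line, 1 fell and 0 rose. Krt7 was the marker that fell (-2.36 log2, limma adjusted p = 0.00445, or 0.0581 without E2 replicate 1). The epithelial list median was -1.24 log2, and 0 of the 12 had a higher mean in E2. At an unadjusted p under 0.05 in limma, 6 were lower and 0 higher. The summed signal of the 12 was 11.6 to 12.9 with placebo and 10.3 to 10.6 with E2. It was highest in placebo replicate 3 (12.9, against 11.9 and 11.6), where 6 of these markers were highest and 1 lowest. Krt8, Krt18, Krt19 and Wt1 had group means of at least 7.36 log2 in both groups. In the E2 tumours the means of Cdh1 (4.96), Lrrn4 (5.01) and Pax8 (4.93) lay below the median of genes on every array, and Muc16 was under the lower quartile on all 3 E2 arrays and 1 placebo array. Of 12 macrophage markers 1 fell, Ctss, and 0 rose, with sums of 11.0 to 11.8 and 10.2 to 10.6. The macrophage list median was -0.87 log2, and 0 of the 12 had a higher mean in E2. At an unadjusted p under 0.05 in limma, 6 were lower and 0 higher. Ctss kept its call only without placebo replicate 3. With that array left out, 6 of the epithelial markers, 10 of the macrophage, 6 of the adipocyte, 4 of the endothelial, 4 of the fibroblast, 1 of the smooth muscle and 1 of the liver markers fell, and 1 each of the endothelial, adipocyte, fibroblast and smooth muscle markers rose. Intestinal markers summed to 8.33 to 14.6 with placebo, the highest value in placebo replicate 3, and 8.25 to 8.65 with E2, and 0 of 15 passed in limma (0 at an unadjusted p under 0.05). Of 12 endothelial markers 1 rose, Kdr, and 0 fell (sums of 9.41 to 9.54 and 9.53 to 9.99). Kdr (2.07 log2) was also the 1 endothelial marker with a higher mean in E2, the list median was -0.40 log2, and 6 were lower at an unadjusted p under 0.05. Of 8 adipocyte markers 1 fell, Adipoq, and 0 rose (8.66 to 9.34 and 9.12 to 9.29). Lpl (1.12 log2, adjusted p = 0.332) was the 1 adipocyte marker with a higher mean in E2, the list median was -0.60 log2, and 6 were lower at an unadjusted p under 0.05. Kdr lost its call without placebo replicate 1 or any E2 array, and Adipoq kept it only without placebo replicate 3. Of 45 fibroblast, smooth muscle, skeletal muscle, liver and lymphocyte markers 0 passed in limma, with 1 higher and 5 lower at an unadjusted p under 0.05. All 9 skeletal muscle markers were lowest in placebo replicate 3. Their sums were 10.3, 12.5 and 8.44 in placebo replicates 1 to 3 and 10.9, 10.4 and 12.6 in E2 replicates 1 to 3. Placebo replicate 2 and E2 replicate 3, with the highest of these sums in their groups, also had the highest Greb1 values (5.39 and 8.53). Liver markers summed to 7.76 to 12.2 and 7.38 to 7.58, and placebo replicate 3 again had the highest sum. There 5 of the 9 liver markers were highest. Over the arrays left out in turn, the Apoa1 difference ranged from -3.66 to -0.06 log2 and that of Alb from -0.16 to 0.12. Fibroblast sums were 11.8 to 12.5 and 11.9 to 12.1, and smooth muscle sums 9.69 to 11.3 and 9.77 to 10.3. The smooth muscle sum was also highest in placebo replicate 3, as were 7 of its 9 markers. Lymphocyte sums were 7.37 to 7.48 and 7.15 to 7.30, and the B cell genes Ms4a1 and Cd79a were under the lower quartile on all 6 arrays. The part of these shifts in the Greb1 and Greb1l values was not tested. Greb1 differed by 3.33 log2 and Greb1l by 1.02 with placebo replicate 3 left out.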

How the data were processed

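RNA from 6 MASE2 tumours, 3 per group by the sample titles, was measured on Affymetrix whole-transcript mouse arrays, 1 per tumour. The deposited values are log2 intensities from RMA, as the submitters' processing notes name it. Its version and the genome build were not given in the sources used here. This method equalises array distributions and compresses changes near background, and depth does not apply to arrays, whose number limits precision.

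Probe sets with 1 symbol in the platform annotation were used (21640 of 34760, while 1321 had several and 11799 were not listed). Their names were checked through RefSeq gene identifiers (GRCm38.p6), where 21553 matched and 0 symbols changed. The probe set of highest mean stood for a gene, which left 19937 genes. 0 sample columns were unmapped. E2 and placebo were compared with limma 3.58.1 (lmFit, eBayes) in R 4.3.3 without covariates, two-sided, with Benjamini-Hochberg adjustment over all genes. The fit was tested on simulated data. Confidence intervals are 95%.

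The members and gene lists were chosen with earlier results of these data known. Named genes were the members, Esr1, Esr2 and Pgr, up to 4 called genes per list (or the 2 of smallest p), the nearest genes by distance and the called or closest chromosomal neighbours. Igf1, Nrip1, Nr3c1, Fzd7, Tnfrsf19, Lratd1, Colec12, Lpin1, Foxl2, Fshr, Krt8, Krt18, Krt19, Wt1, Cdh1, Lrrn4, Pax8, Muc16, Lpl, Apoa1 and Alb, where named outside this rule, were chosen after their values were seen. No set test was run. Promoter windows are from RefSeq, which gave 2 for Greb1. No alternative needed new reads: arrays left out, a replicate block, a filter, 2 scalings, probe set means, a robust variance, array weights and a threshold of 0.10, with single probe sets added after the data were seen. Same-numbered tumours did not deviate together (r across genes of -0.03, -0.18 and -0.13), so replicate numbers were not taken as pairs. P-values measure the spread between tumours.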

Additional observations from a re-analysis of the deposited data

How the results depend on the processing

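Greb1 kept its direction in all 14 alternative fits and its call in 13. With the replicate block, whose numbers do not pair the tumours, its change was again 3.41 log2 and missed the threshold (adjusted p = 0.0514), and Greb1l, at 1.19, had an adjusted p of 0.275. Greb1l passed in 3 of its 14 fits, without placebo replicate 3, with median centring (1.27 log2) and with array weights (1.01 log2), and ranged from 1.02 to 1.38 log2 over the arrays left out in turn. The difference between the paralogs ranged from 2.06 to 2.32 log2. The genes called higher with E2 ranged from 31 to 1276 and those lower from 0 to 1039 as each array was left out (without E2 replicate 1, limma gave 917 lower genes at an unadjusted p under 0.05). The counts higher and lower were 10 and 0 with the replicate block (886 lower at an unadjusted p under 0.05), 1026 and 760 with array weights, 543 and 193 at an adjusted p under 0.10, and 363 higher with median centring, against 211 and 65. The causes were not tested. No detection call was used, so signal near background may limit the Greb1 placebo values and both Greb1l probe sets. Promoter matches were the same in the 250 upstream bases and the whole window.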
